A study of Oryza sativa with 46 samples.

Results

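The 2 cultivated subspecies of rice, japonica and indica, were compared in seedlings labelled as unstressed (0 mM NaCl). The comparison took 13 of the 46 one-colour Agilent arrays of the series. Japonica was represented by 4 arrays, namely replicates 1 and 2 of the cultivars Banikat and Nipponbare. Indica was represented by 9 arrays, namely replicates 1 to 3 of the landrace Pokkali and of the variety PSBRc50, replicate 1 of the variety IR58 and replicates 1 and 3 of the high yielding variety BRRIdhan 29. Another 4 arrays labelled 0 mM of these genotypes were left out because their probe pattern was closer to another genotype than to the one on the label. RNA came from whole seedlings, root and shoot together, at day 16, grown hydroponically in Yoshida nutrient medium, and the stressed counterparts received 120 mM NaCl. Arrays of a genotype share that genotype, so the genotype and not the array was taken as the replicate of a subspecies, giving 2 japonica against 4 indica means. In RNA of whole seedlings, fewer cells of a type and less RNA per cell cannot be told apart.

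Indica and japonica are the main subspecies of Asian cultivated rice, and their genomes differ by sequence changes, by the presence or absence of whole genes and by gene regulation. The probes of a rice array are designed on sequences known when the array was made, which came largely from japonica rice, the subspecies of the reference cultivar Nipponbare. A probe can therefore read lower in one subspecies through a lower transcript level, through a missing gene or through mismatches under the probe, and these cannot be told apart by signal alone. Oryza rufipogon, the wild species from which cultivated rice was domesticated, was hybridized in the same series and served for comparison.

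Each array had 42477 different probes after spots of the same probe were averaged. Between 31386 and 35239 of them were well above background on the indica arrays and between 33558 and 36131 on the japonica arrays. The indica genotypes were hybridized on 6 slides scanned on 3 days and the japonica genotypes on 3 other slides scanned on 3 other days, so subspecies cannot be told apart from slide and scan day. The wild species shared the scan days of japonica. The 9 leaf markers were well above background on all 13 arrays, as were 6 of the 7 root markers. The mean log2 level of the leaf markers was 16.01 to 17.43 on the japonica and 17.03 to 17.66 on the indica arrays, and 3 of the 4 japonica arrays (16.01, 16.86 and 16.90) lay below every indica array. That of the root markers was 8.01 to 9.32 on the japonica and 9.13 to 11.2 on the indica arrays. Lower calls at 0 mM came from 2 leaf and 2 root markers, beside 6.04% of all probes called lower. None of either list passed when both labelled treatments were averaged, where 0.212% of all probes passed. The median differences on that mean were −0.14 for the leaf and −0.84 for the root markers, beside −0.10 over all probes. The part of tissue share in the results was not tested.

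The salt-responsive genes of the japonica arrays went against the treatment on their labels. A list of 30 probes, each of another locus, was taken from those with the strongest rise from 0 to 120 mM in O. rufipogon, and was chosen after the values were seen. It holds genes of the drought and abscisic acid response, such as Os11g0454300 (water-stress inducible protein RAB21) and Os05g0381400 (abscisic acid induced plasma membrane protein PM 19). The median log2 level of the list was 5.05 to 8.67 on the indica arrays labelled 0 mM and 8.69 to 13.2 on the indica arrays labelled 120 mM. On the japonica arrays labelled 0 mM it was 10.2 and 12.3 in Banikat and 12.9 and 12.4 in Nipponbare. On those labelled 120 mM it was 4.56 and 4.48 in Banikat and 9.20 and 4.04 in Nipponbare. Every one of these 4 pairs was therefore higher at the label 0 mM, whereas in each indica genotype the list was higher at 120 mM.

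**Figure D1:**
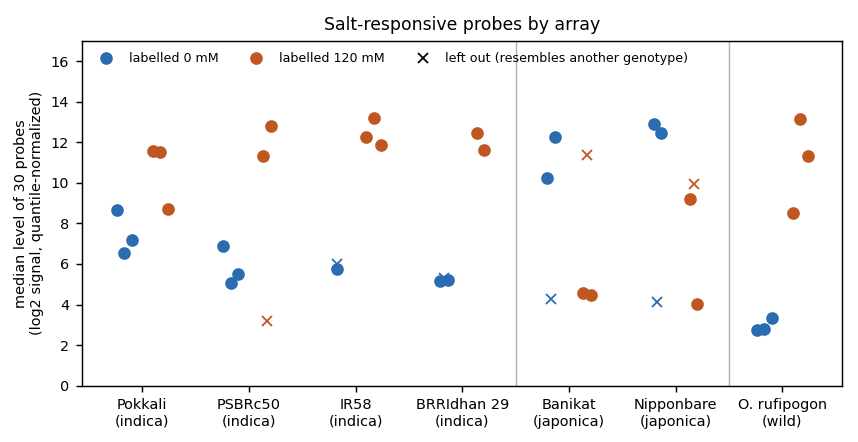
Median log2 level of 30 salt-responsive probes on each array, by genotype, with one point per array, the labelled treatment shown by the colour and crosses for arrays left out for their genotype pattern. The 4 japonica arrays kept at the label 0 mM lie between 10.2 and 12.9, in the range of the indica arrays labelled 120 mM.

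The same held over the whole array. Across probes, the difference between 120 and 0 mM in O. rufipogon correlated with that of Pokkali, PSBRc50, IR58 and BRRIdhan 29 at Pearson's r of 0.40, 0.51, 0.50 and 0.52, and with that of Banikat and Nipponbare at −0.51 and −0.44. These correlations are over probes of shared arrays, which are not independent, and are given as a description. The replicate 3 arrays of japonica, which were left out for their genotype pattern, had list medians of 4.29 (Banikat) and 4.12 (Nipponbare) at 0 mM and of 11.4 and 9.93 at 120 mM, as in indica. On the 2 slides that held japonica replicates 1 and 2, the arrays were ordered with 120 mM before 0 mM, and on the others with 0 mM first. The genotype order was turned there too, with Nipponbare before Banikat, while the slide of replicate 3 had Banikat first. Both Banikat replicate 3 arrays were closest to Nipponbare (r of 0.38 at each label). Nipponbare replicate 3 was closest to IR58 at 0 mM (0.41) and to Banikat at 120 mM (0.83). Whether treatment or genotype labels were exchanged was not tested, and the labels were kept. Results are therefore given first for the arrays labelled 0 mM and then for the mean of both labelled treatments, which an exchange within a genotype leaves as it is.

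Between the arrays labelled 0 mM, several genes of the water deficit response were among those raised in japonica, and genes for photosynthesis and ribosomes were among those that were lower. The largest rise among the called probes was at Os04g0424900 (11.72) and the largest fall at Os03g0846200 (−8.29), which are described with the mean of both treatments because they kept their direction. With limma and Benjamini-Hochberg adjustment over 42477 probes, 4840 probes (11.4%) passed an adjusted p of 0.05, of which 2273 (5.35%) were higher and 2567 (6.04%) lower in japonica. An unadjusted p under 0.05 was reached by 13786 probes. Without overlap of any array between the groups, 2449 probes (5.77%) were higher and 3534 (8.32%) lower in japonica. The count changed with every genotype left out, with 165 probes called without PSBRc50, 1027 without IR58, 1187 without Pokkali and 1533 without BRRIdhan 29. It was 325 without replicate 1. It was lower without Banikat and higher without Nipponbare, each of which leaves japonica as a single genotype. These fits hold fewer genotype means, and the part of this in the counts was not tested.

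Late embryogenesis abundant (LEA) proteins and dehydrins are very hydrophilic proteins that accumulate when plant cells lose water. The group 3 LEA protein Os05g0542500 had log2 signals of 14.88 and 17.01 in Banikat and 16.42 and 15.95 in Nipponbare, and of 5.41 to 10.45 with a median of 8.56 on the indica arrays. All 4 japonica arrays lay above all 9 indica arrays. The difference was 8.28 ± 0.93 (SE, 2 against 4 genotypes, limma adjusted p = 0.015). At the label 120 mM the order was turned, with a difference of −8.53 ± 0.89 (adjusted p = 0.041), and the mean of both differed by −0.13.

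The dehydrin RAB 16B gene Os11g0454200 gave 13.40, 15.73, 15.13 and 14.11 in Banikat 1 and 2 and Nipponbare 1 and 2, against 5.18 to 9.46 in indica with a median of 6.14. RAB21 (Os11g0454300), a dehydrin induced by water stress and abscisic acid, gave 16.21, 17.70, 17.52 and 17.24 against 6.46 to 11.68. Both sets were apart on every array. Their differences of 8.10 ± 0.80 (adjusted p = 0.013) and 7.97 ± 1.10 (adjusted p = 0.021) became −8.21 and −8.20 at the label 120 mM. Of 20 probes annotated as dehydrin or LEA, a class added after the values were seen, 11 were called higher and none was called lower. This stands beside 5.35% of all probes, and 742 of 9058 annotated probes, called higher. The 20 probes were of 10 loci. The called ones were all of Os05g0542500, Os01g0702500, Os02g0669100, Os03g0168100 and Os11g0454200, so several read the same transcript. The median difference of the class was 3.13 against −0.09 over all probes. The class had a median of −3.09 at the label 120 mM and of 0.07 on the mean of both.

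Other probes with strong rises that were well above background on all 13 arrays showed the same turn. The cold-regulated protein gene Os05g0468800 differed by 7.95 ± 0.26 (limma adjusted p = 7.84e-04) at the label 0 mM and by −4.41 at 120 mM. The protein phosphatase 2C gene Os06g0698300, whose family removes phosphate from serine and threonine residues, differed by 7.34 ± 0.38 (adjusted p = 0.0029) and by −5.02. Os06g0681200 and Os07g0529000, unannotated here, differed by 8.02 and 6.87 and turned to −7.32 and −5.06. In the whole list of 30 salt-responsive probes, 26 were higher in japonica at the label 0 mM, 20 of them with an adjusted p under 0.05, and 28 were lower at 120 mM. The list had median differences of 6.40, −6.84 and −0.16 at 0 mM, at 120 mM and on the mean of both, beside −0.09, −0.06 and −0.10 over all probes.

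Among probes well above background on all 13 arrays, those lower in japonica at the label 0 mM included Os12g0583300, a peptidase of the pepsin family, a group of aspartic proteases. It gave 5.46, 2.74, 4.46 and 6.45 in japonica against 10.31 to 12.78 in indica, with a median of 11.69. The groups did not overlap, and the difference was −6.91 ± 0.62 (limma adjusted p = 0.011). The phosphoglucomutase gene Os06g0476200, whose product interconverts glucose phosphates, differed by −5.10 ± 0.66 (adjusted p = 0.020). At the label 120 mM these 2 genes differed by 4.41 and 3.29 in the opposite direction. The unannotated loci Os04g0282400, Os04g0310100, Os01g0922700, Os05g0579600 and Os04g0554800 were lower by 4.39 to 6.23 and likewise higher, by 2.10 to 4.12, at 120 mM. Among probes well above background on every indica and no japonica array, Os10g0508700, Os07g0406800, Os04g0494900 and Os08g0436700 were at least 33.3-fold, 9.69-fold, 12.2-fold and 11.0-fold brighter in indica at 0 mM, and differed by 3.99, 1.19, 1.19 and 0.65 in the opposite direction at 120 mM. Of the 16 probes named by the size of the difference, Os04g0423400 and Os02g0102400 kept their direction.

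Classes of genes, formed by the words of the annotation, can be set beside 12.8% of all 9058 annotated probes called at 0 mM. These annotations cover 5531 loci that the study had selected on these same samples, so the shares are not independent of the data. The heat shock class held chaperones, which hold or refold other proteins, and heat shock transcription factors. It had 29 of 70 probes called higher and 1 called lower. The 70 probes were of 35 loci, and many called probes read the same locus, as at Os03g0266300 and Os03g0266900. The 17.5 kDa class II heat shock protein Os01g0184100 differed by 6.35 and heat shock protein 70 Os03g0277300 by 5.40. Probes for photosystems and chlorophyll binding proteins were called lower in 12 of 31 cases and called higher in none. Among ribosomal proteins 17 of 93 were called lower and 2 called higher, and among peroxidases 16 of 115 were called lower and 2 called higher. The median differences of heat shock, photosystem and ribosomal probes were 1.24, −1.08 and −0.77 at the label 0 mM, −0.96, 0.82 and 0.70 at 120 mM and 0.04, −0.11 and −0.10 on the mean of both.

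**Figure D2:**
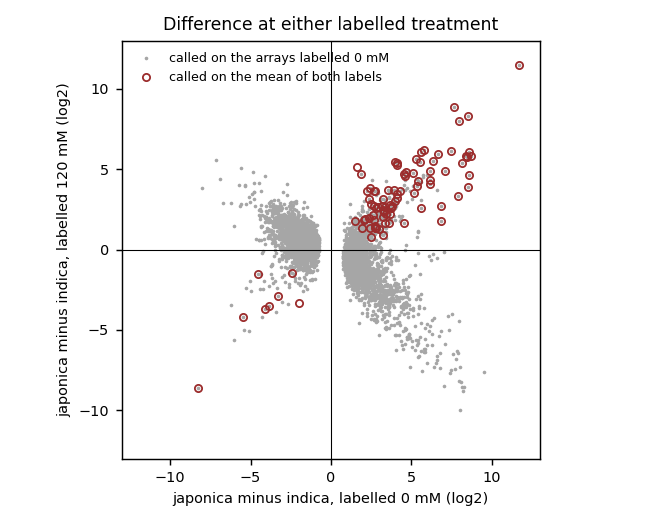
Difference between japonica and indica (log2) at the label 0 mM (horizontal axis) and at the label 120 mM (vertical axis), with grey points for the probes called at 0 mM and red rings for the 90 called on the mean of both. Most probes called at 0 mM lie on the opposite side of zero at 120 mM, as 21.5% of them kept their direction.

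At the label 120 mM, 172 probes (0.405%) differed, 72 (0.170%) higher and 100 (0.235%) lower in japonica, on 4 japonica and 10 indica arrays. The difference in salt effect between the subspecies was called for 13182 probes (31.0%), 7114 (16.7%) of them with a higher and 6068 (14.3%) with a lower value in japonica. Of the 4840 probes called at 0 mM, 1042 (21.5%) differed in the same direction at 120 mM, 44 were called at both in the same direction and 87 were called in opposite directions. A difference in salt effect was called for 4052 of the 4840. Between genotype pairs, the median absolute log2 difference at 0 mM was 0.26 to 0.42 within indica, 0.54 between Banikat and Nipponbare and 0.52 to 0.91 between subspecies. On the mean of both treatments it was 0.25 to 0.36, 0.47 and 0.29 to 0.56, so the ranges within and between subspecies overlapped.

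When both labelled treatments were averaged, a small set of loci separated the subspecies, most of them brighter in japonica. With limma, 90 probes (0.212%) of 66 loci passed an adjusted p of 0.05, 82 (0.193%) higher and 8 (0.0188%) lower in japonica. An unadjusted p under 0.05 was reached by 4653 probes. The median difference was 3.57 among the higher and −3.39 among the lower probes, and 48 of the 90 did not overlap on any array at either labelled treatment. Among all probes, 82 (0.193%) were higher and 48 (0.113%) lower in japonica without overlap at both. In 21 of the 90, no indica array was well above background at either treatment. The count was 18 without PSBRc50, 22 without IR58, 38 without Pokkali, 55 without BRRIdhan 29, 114 without Banikat and 3289 without Nipponbare, and 57, 37 and 53 without replicates 1, 2 and 3. The excess of higher calls was smaller with either japonica genotype left out, which leaves japonica as a single genotype. The cause was not tested. In all 14 alternatives the 90 probes kept their direction, and 10 of them, from 9 loci, were called in every one.

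The largest difference was at Os04g0424900, annotated as a hypothetical protein. At the label 0 mM its log2 signal was 14.30 and 15.03 in Banikat and 11.90 and 12.42 in Nipponbare, and 1.42 to 2.22 with a median of 1.59 in indica. At the label 120 mM it was 13.87, 14.24, 12.30 and 12.70 against 1.44 to 2.76. The transcript was thus among the bright ones in japonica, and in indica 1 of 19 arrays was well above background. The mean difference was 11.61 ± 0.54 (SE, limma adjusted p = 0.0050), and at 0 mM japonica was at least 2234-fold brighter. Such a bound sets the japonica mean against the lowest signal well above background in indica.

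Os03g0723600, also a hypothetical protein, gave 9.10, 10.20, 10.23 and 10.15 in japonica and 1.28 to 1.84 in indica at the label 0 mM. Its levels were 9.43, 9.81, 9.58 and 9.93 against 1.24 to 1.49 at 120 mM. No indica array was well above background, and japonica was at least 211-fold and at least 147-fold brighter at the 2 labels. The mean difference was 8.45 ± 0.16 (limma adjusted p = 2.32e-04). A second probe of the locus differed by 0.31 and was not called.

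Os11g0696600, another hypothetical protein, gave 9.77, 8.68, 9.75 and 9.48 in japonica against 1.36 to 1.53 in indica at 0 mM. Japonica was at least 144-fold brighter at the label 0 mM and at least 122-fold at 120 mM, with a mean difference of 7.99 ± 0.20 (limma adjusted p = 2.78e-04). No indica array reached the background limit. Os09g0103300 (5.94 ± 0.14), Os03g0738300 (4.60 ± 0.21) and Os12g0254400 (5.99 ± 0.50) were further hypothetical proteins that were brighter in japonica. In the last of these, the brightest indica array read 7.22 at 0 mM against a median of 1.94.

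The reverse pattern was led by Os03g0846200, a hypothetical protein as well. It gave 1.24, 1.34, 1.27 and 1.96 in japonica against 8.28 to 11.08 in indica at the label 0 mM, with an indica median of 9.94. At the label 120 mM the japonica arrays gave 1.27, 1.66, 1.29 and 1.33 against 9.08 to 10.96. No japonica array and every indica array was well above background, and indica was at least 180-fold and at least 239-fold brighter at 0 and 120 mM. The mean difference was −8.46 ± 0.17 (limma adjusted p = 2.32e-04). Os01g0953400, a conserved hypothetical protein, differed by −3.11 ± 0.30. Os01g0153800, with an esterase, lipase and thioesterase domain, differed by −4.82 ± 0.43, and both probes of the unannotated Os08g0526200 differed, by −3.90 and −3.67.

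**Figure D3:**
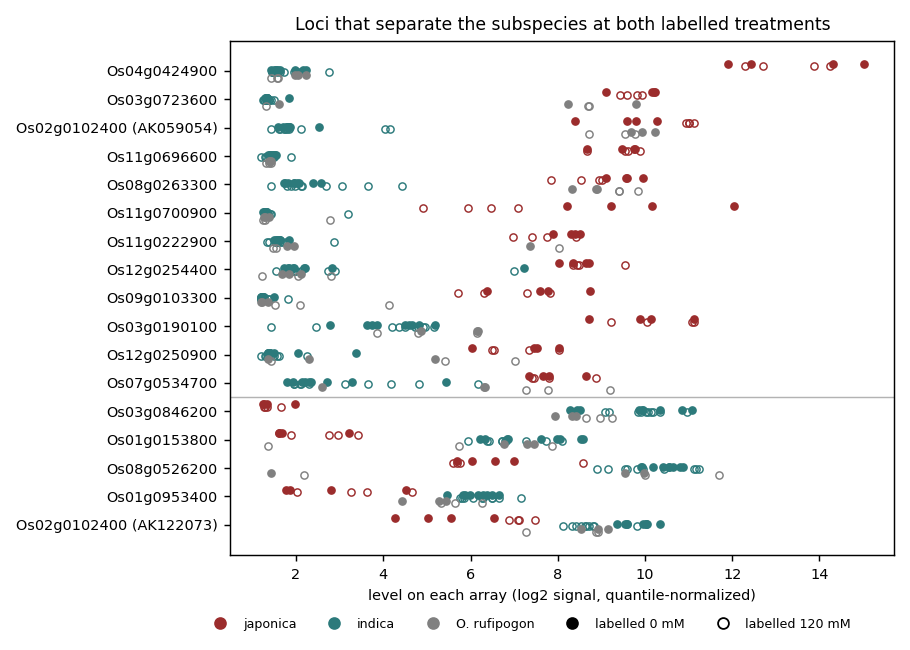
Log2 level of 17 probes on each array, with japonica, indica and O. rufipogon in 3 colours and the labelled treatment shown by the fill. In the upper block japonica is higher, and in the lower block indica is higher, at both labelled treatments.

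Several genes annotated for defence were brighter in japonica. The class III chitinase homologue Os11g0700900, of a family that breaks down chitin of fungal walls, had 6 probes, 5 of which were called with mean differences of 4.34 to 6.62. Its probe for transcript D55714 gave 10.16, 12.04, 9.22 and 8.21 at the label 0 mM and 5.95, 7.08, 6.47 and 4.91 at 120 mM in japonica. In indica it stayed between 1.24 and 1.32 at 0 mM and reached 3.19 on the brightest array at 120 mM. The groups were apart at both labels, while the japonica level was higher at the label 0 mM. The mean difference was 6.62 ± 0.45 (limma adjusted p = 0.016).

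Os11g0222900, of the disease resistance protein family, gave 7.88, 8.52, 8.30 and 8.39 in japonica against at most 1.83 in indica at the label 0 mM, with an indica median of 1.59. Japonica was at least 63.4-fold brighter at 0 mM and at least 34.8-fold at 120 mM, and the mean difference was 6.32 ± 0.16 (limma adjusted p = 2.78e-04). Its second probe also passed, at 3.65. PibH8 (Os08g0539700), named for its likeness to the blast resistance gene Pib, had 3 of 4 probes called, at 3.13 to 3.20, and 1 at −0.34. Disease resistance probes as a class had 7 called higher and 1 called lower of 77 at 0 mM, which is 10.4% against 12.8% of annotated probes. On the mean of both, 2 were called, both of Os11g0222900, beside 62 called higher of 9058 annotated probes. The 77 probes, of 59 loci, had a median difference of 0.99 at the label 0 mM, 1.18 at 120 mM and 0.97 on the mean. Over all annotated probes the median was 0.07 on the mean. Of the 77, 58 were higher in japonica on the mean, and the share of annotated probes that were higher was not computed.

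Other loci called on the mean had varied products. Of 510 probes with the word kinase in their annotation, which include sugar kinases, 4 were called, beside 0.212% of all probes. Annotated probes were called more often than that, with 62 of 9058 higher and 5 lower on the mean. Os07g0534700, a protein kinase, differed by 4.95 ± 0.37, the receptor-like serine/threonine kinase Os04g0616400 by 5.27 in one probe and by 3.05, not called, in the other, and the receptor protein kinase Os09g0345300 by 2.97 ± 0.28. The UbiA prenyltransferase gene Os03g0190100, of a family that joins isoprenoid chains to aromatic rings, differed by 5.86 and 5.51 in its probes. Os01g0144100, a protein of the thylakoid lumen inside chloroplasts, differed by 4.69 to 4.75 in all 3 probes. The cellulase gene Os07g0480800 differed by 4.64 ± 0.44 and Os12g0250900, with the BRCT domain found in DNA repair proteins, by 5.49 ± 0.45. Further loci with higher probes were Os08g0263300 (6.78), Os08g0540000 (4.84), Os04g0362300 (4.77), Os11g0223400 (3.67), Os12g0239900 (3.27), Os07g0488200 (3.18) and Os07g0487100 (3.02). The last 7 did not overlap at either label.

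The glutathione S-transferase gene Os01g0370900, of a family that joins glutathione to reactive compounds, was uneven within japonica. It gave 10.01 and 2.79 in Banikat and 4.97 and 5.59 in Nipponbare at the label 0 mM, against 1.36 to 2.44 in indica. All 4 arrays lay above indica, and the mean difference was 3.99 ± 0.20 (limma adjusted p = 0.0059).

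Probes named for microRNAs were called as well. Of 510 probes named for rice microRNAs, 5 were called on the mean of both, all higher in japonica, beside 0.193% of all probes called higher. Differences were 4.66 for the probe of osa-miR399h, 3.49 for osa-miR160f, 3.23 for osa-miR440, 2.95 for osa-miR156k and 2.26 for osa-miR166h. In that order they were called in 8, 8, 7, 5 and 3 of 14 alternatives. Only the probe of osa-miR160f kept the groups apart at both labels. Whether these probes read the mature microRNAs was not tested. MicroRNAs of the miR399 family are known for regulating phosphate balance and those of the miR156 family for regulating the change from the juvenile to the adult phase.

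Some loci were read on every japonica and on no indica array without passing the test on the mean. At both labelled treatments, 19 probes (0.0447%) were well above background on all japonica and no indica arrays, and 2 (0.00471%) in the reverse, against 110 (0.259%) and 25 (0.0589%) at 0 mM alone. With all arrays labelled 0 mM the sum of 135 fell to 3. Os11g0609600, a 14-3-3 protein, whose family binds phosphorylated partners, gave 5.56 and 5.48 in Banikat and 8.25 and 7.76 in Nipponbare, with a mean difference of 4.85 and adjusted p = 0.12 by limma. Os02g0262800, an NBS-LRR protein of the class of intracellular immune receptors, differed by 3.61 (adjusted p = 0.15). The ankyrin repeat gene Os11g0219400 gave 1.19, 1.26, 1.21 and 1.23 in japonica against 4.78 to 8.43 in indica, a mean difference of −5.81 (adjusted p = 0.19).

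Os04g0423400 belongs to the ABA/WDS induced family, small proteins raised by abscisic acid and water deficit, and kept its direction at both labels. Its probe for transcript AK104594 gave 12.71, 13.62, 13.91 and 13.52 in japonica against 3.92 to 6.21 in indica at the label 0 mM. At the label 120 mM it gave 13.25 and 13.38 in Banikat but 2.65 and 13.76 in Nipponbare, against 1.27 to 6.94. One Nipponbare array thus lay within indica, as did the left-out Nipponbare replicate 3 at 0 mM (5.63). The difference was 8.73 ± 0.31 (adjusted p = 7.84e-04) at 0 mM and 5.80 ± 1.40 (adjusted p = 0.12) at 120 mM by limma. Of its 8 probes, 6 were called on the mean, at 6.01 to 7.35, and the others differed by 1.00 and −0.17.

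Probes of one locus mostly moved together. At the label 0 mM, 1444 loci with several probes had a called probe, and of their 2541 other probes 1035 were called in the same and 3 in the opposite direction, while 93.5% had the same sign. On the mean of both treatments, the 16 such loci had 30 other probes, of which 18 were called in the same direction, 1 in the opposite and 11 were not called.

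The opposite pair lay in Os02g0102400, annotated for the C-terminal domain of ribosomal protein S5, a protein of the small ribosomal subunit. Its probe for AK059054 gave 9.80, 8.39, 9.58 and 10.28 in japonica against 1.59 to 2.52 in indica at the label 0 mM. Its probe for AK122073 gave 5.02, 4.26, 5.55 and 6.54 against 9.36 to 10.33. Neither probe overlapped between the groups, and their mean differences were 8.26 ± 0.21 (limma adjusted p = 2.78e-04) and −3.02 ± 0.26 (adjusted p = 0.030). In O. rufipogon the first gave 9.67 to 10.22 and the second 8.54 to 9.16 at 0 mM, so both were bright there.

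**Figure D4:**
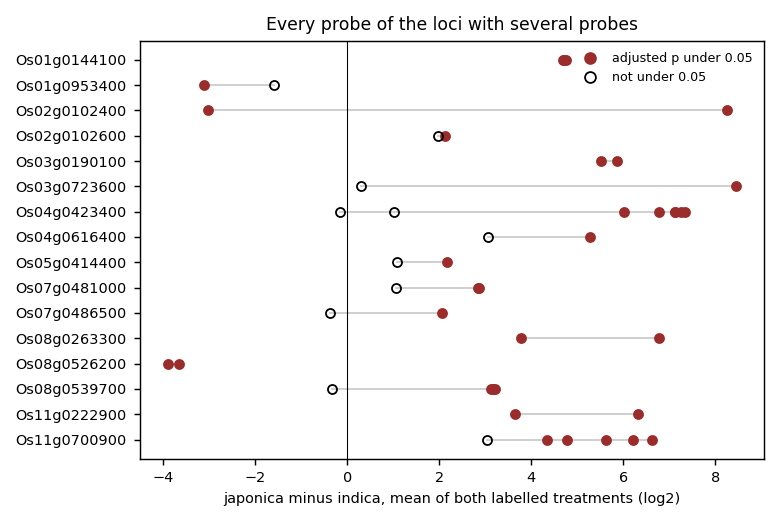
Difference between japonica and indica (log2, mean of both labelled treatments) for every probe of the 16 loci with several probes, filled where the adjusted p was under 0.05. Os02g0102400 spans −3.02 to 8.26, while the 3 probes of Os01g0144100 coincide.

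O. rufipogon was nearer to indica on most probes called at 0 mM and was divided on those called on the mean. Of the 4840 probes, it was nearer to japonica in 547 (11.3%), with a median position of 0.07 on a scale from 0 at the indica to 1 at the japonica mean. No share over all probes was computed from the 0 mM levels. At the label 0 mM the salt-responsive list, chosen in O. rufipogon, had medians of 2.73 to 3.33 there. The list medians were 5.05 to 8.67 in indica and 10.2 to 12.9 in japonica. The part of this difference in the positions was not tested. Of the 90 probes, with O. rufipogon also averaged over both treatments, it was nearer to japonica in 47 (52.2%), with a median position of 0.51, beside 43.3% of all probes placed in the same way. Os04g0424900 and Os11g0696600 were dark in O. rufipogon at 0 mM (1.98 to 2.22 and 1.38 to 1.43), as in indica. Os03g0723600 was bright on 2 of its arrays (9.79 and 8.24) and dark on 1 (1.62). Os03g0846200, below background in japonica, read 7.94 to 8.42.

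**Figure D5:**
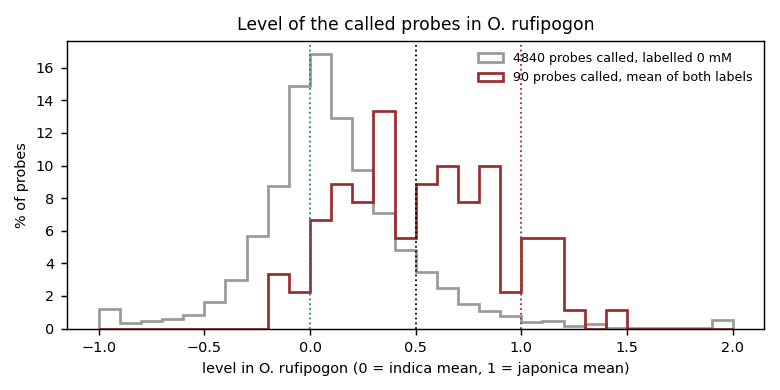
Position of O. rufipogon between the indica (0) and the japonica mean (1), as the percentage of probes. The 4840 probes called at 0 mM are placed by their 0 mM levels and the 90 called on the mean by the mean of both treatments, with values beyond the ends in the end bins. The median is 0.07 for the first and 0.51 for the second.

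The loci called at 0 mM were spread over the genome. At 0 mM, between 10.2% (chromosome 12) and 14.6% (chromosome 3) of the loci of a chromosome were called. On the mean of both, 66 of 29689 loci were called, less evenly. Chromosome 4 held 12 (0.455% of its loci), chromosome 7 held 11 (0.47%) and chromosome 10 none, against 0.0845% to 0.329% on the others. Within 5 loci of each other on the array lay 15 of the 66 loci in 7 groups, all higher in japonica in at least 1 probe. How often loci drawn at random lie so near was not computed. The 7 groups included Os04g0423400 with Os04g0424900, Os08g0539700 with Os08g0540000, Os11g0222900 with Os11g0223400 and Os12g0250900 with Os12g0254400. A further group held Os07g0486500, Os07g0487100 and Os07g0488200, and the probes of the last 2 carry the same transcript name; whether they read 1 transcript was not tested. By kind of probe, 12.2% of those for coding and 3′ untranslated sequence of a known transcript were called at 0 mM, against 10.4% of EST-supported predictions and 7.37% of predictions without a transcript.

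Of 26 loci known from rice genetics to vary between or within the subspecies, 21 had a probe and 2 were called at 0 mM, beside 11.4% of all probes. Hd1 (Os06g0275000), which times flowering by day length, gave 8.80, 9.98, 7.82 and 7.94 in japonica against 5.00 to 7.56 in indica. The groups did not overlap, and the difference was 2.38 ± 0.47 (limma adjusted p = 0.037), but it was −0.21 at the label 120 mM. Os06g0229800, unannotated here, gave 1.30, 1.43, 2.00 and 2.54 against 4.03 to 5.65 and was at least 5.96-fold brighter in indica at 0 mM (adjusted p = 0.014). On the mean of both it differed by −2.36 (adjusted p = 0.059), and none of the 21 was called.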

How the data were processed

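Per the labels and the study's methods, Cy3-labelled cRNA of whole seedlings was hybridized to Agilent 4x44K rice arrays and read with Agilent Feature Extraction (10.7.3.1). The deposited scanner files hold 1 intensity per spot, already background-subtracted by that software. The authors also deposited a table of quantile-normalized log2 values, used here as an alternative only. The subspecies of each genotype is that of the study's methods.

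Processed intensities were taken to log2 and quantile-normalized over all 46 arrays, without control spots and outlier flags (0.146% of spots), and spots of 1 probe were averaged. Genotype means were compared with limma (3.58.1, R 4.3.3), 2 japonica against 4 indica, with Benjamini-Hochberg adjustment. For 250 probes IR58 had no value at 0 mM, and indica was the mean of 3 genotypes. The script was tested on simulated data. Precision is limited by the number of genotypes. Per the study's methods, a replicate was the sample of a single seedling, so array spread holds differences between plants as well as technical ones. Nothing in the labels says that the seedlings came from separate cultures or batches.

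Named genes were the 8 probes with the largest difference each way among called, non-overlapping probes above background on all arrays, and the 6 brightest each way among probes dark in 1 subspecies, each of another locus. On the mean of both treatments, chosen as a comparison after seeing the data, up to 24 each way were taken, and further loci of that comparison were named after their values were seen. Members and lists were chosen with earlier results of these data known. Gene names come from the study's supplementary lists, for 5531 of 29689 loci. Of 35865 probes with a locus and a systematic name that also gives a locus, 1353 carry that of another locus. The named probe of Os04g0310100 is among them, with the systematic name Os04t0308500-01. Alternatives covered scaling, background correction, the authors' table, dim probes, arrays taken, blocks, and genotypes or replicates left out.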

Additional observations from a re-analysis of the deposited data

Results flagged for a closer look

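In 3 of 50 probes tested, 1 of the 4 indica genotypes lay far from the others at the label 0 mM, a share that chance gives in about 1 in 20. At Os03g0723600 the mean of Pokkali was 1.503 against 1.31 to 1.32 in the others, all below background. At Os02g0102400 (AK059054) BRRIdhan 29 was at 2.19 against 1.74 to 1.81. At the F-box gene Os04g0464900 BRRIdhan 29 was at 8.27 against 8.77 to 8.86. The response to the labelled salt treatment differed between the subspecies in 13182 probes by limma, 7114 higher and 6068 lower in japonica. In the list of 30 salt-responsive probes, 4 were higher at the label 120 mM in Banikat and 3 in Nipponbare, against 26 to 29 in the indica genotypes.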

How the results depend on the processing

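Counts at the label 0 mM (4840) stayed within 1.5 times under 75th percentile scaling (4572), normexp (6456), the authors' table (4623), bright probes alone (5020), the 13 arrays normalized alone (4386) and every array under its label (3446). The share higher in japonica went from 47.0% to 56.0% under 75th percentile scaling, and to 52.9% with every array. Of the calls without replicate 1, 82.2% were higher, and without PSBRc50 83.6%, Pokkali 64.5%, IR58 64.1%, Banikat 64.7%, BRRIdhan 29 59.7% and Nipponbare 42.5%. The median of all probes moved from −0.09 to 0.08. With arrays as replicates, 15207 probes were called without and 16589 with a replicate block, 10826 with the slide and 9897 with the genotype as a random block. Deviations of same-numbered arrays correlated at 0.38 to 0.69 in 7 pairs of indica arrays and at −0.20 to 0.01 in 12 pairs with a japonica array, so the numbers do not pair japonica with indica. A fit with scan day as a block could not be made. Leaving out genotypes or replicates gave 165 to 9836 calls at 0 mM, 19 to 2422 at 120 mM, 3866 to 12986 for the salt effect and 18 to 3289 on the mean. At 120 mM (172) there were 81 calls under 75th percentile scaling and 0 by limma with every array under its label (9128 at an unadjusted p under 0.05). The difference in salt effect (13182) was called in 7404 with every array. Probes above background in 1 subspecies alone fell from 135 to 3 with every array. The causes were not tested.

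Taking japonica by its replicate 3 arrays alone, added after seeing the data, left 0 calls by limma (7072 at an unadjusted p under 0.05) and turned 18 of 50 named probes. These arrays had been left out for their genotype pattern. Banikat replicate 3 was closest to Nipponbare (r of 0.38) and Nipponbare replicate 3 to the indica variety IR58 (0.41), so this set is not clearly japonica. The differences became −0.93 at Os05g0542500, −1.90 at Os11g0454200, −0.56 at Os06g0681200, −2.21 at Os11g0454300, −0.31 at Os07g0529000, 0.44 at Os05g0579600, 0.14 at Os04g0554800, 0.23 at Os07g0406800 and 0.57 at Os04g0494900. They became −0.99 at Os06g0275000, −0.036 at Os04g0464900, 0.17 at Os05g0172500, −0.43 at Os01g0184100, −0.19 at Os03g0277300, 0.10 at Os02g0529700, 0.51 at Os09g0346500, −0.23 at Os11g0160100 and −0.22 at Os06g0651200. No other alternative turned a named probe, and in 218 of 1000 cases a named probe was no longer called at 0 mM. On the mean of both, 29 named probes over 14 alternatives kept their direction, and 131 of 406 cases were no longer called.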
